A study of Mus musculus with 10 samples.

Results

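The genes described are 8 monocyte-recruiting CC chemokines, Ccl2, Ccl6, Ccl7, Ccl8, Ccl9, Ccl11, Ccl12 and Ccl24, and the receptor gene Ccr2. Through CCR2, monocytes follow CCL2 and others of the MCP subfamily. The genes were taken by symbol and are 9 of the 45706 genes counted in whole mouse melanomas. All 9 were expressed well enough to be tested, among 14550 tested genes. The study asked what the tumor microenvironment looks like early on when cancer cells cannot make prostaglandin E2, and which of its features need NK cells.

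All tumors came from a Braf-mutant melanoma line that was established from C57BL/6 Braf +/LSL-V600E Tyr::CreERT2 mice that lacked p16 INK4a. They grew in C57BL/6 hosts, labelled as 8 weeks old, and were collected on day 4 after injection. Tumors of the parental, COX-competent cells (Ptgs+/+, n = 4) and of cells made deficient in Ptgs1 and Ptgs2 with CRISPR/Cas9 (Ptgs-/-, n = 3) came from hosts labelled as untreated. The genes Ptgs1 and Ptgs2 encode the cyclooxygenases COX-1 and COX-2. A further group of Ptgs-/- tumors (NK-depleted Ptgs-/-, n = 3) came from hosts that, by the labels, received 30 µg of anti-asialo GM1 together with 200 µg of anti-NK1.1 on day 0 and again on day 2, whereas the general methods of the study give another schedule. The general methods name control IgG for depletion experiments, but the labels call the other hosts untreated. Whether they received it is not given in the sources used here, and if they did not, NK cell loss and antibody injection cannot be told apart. Asialo GM1 is also carried by cells other than NK cells. Whether the Ptgs-/- line is 1 clone is not given in the sources used here. Only the cancer cells were edited, and the host cells in every tumor kept their cyclooxygenases.

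Chemokines are small secreted proteins that bind receptors on leukocytes and direct their migration. CCL2, CCL7, CCL8 and CCL12 form the mouse MCP group. CCL2 and others of the group draw CCR2-bearing monocytes out of bone marrow and blood into inflamed tissue and tumors, where monocytes can become macrophages. CCL11 and CCL24 are eotaxins, which act on CCR3, the receptor of eosinophils. CCL6 and CCL9 are mouse chemokines that act on CCR1 and are made in quantity by myeloid cells. Monocytes lose CCR2 as they mature into macrophages, so Ccr2 mRNA is richest in newly arrived monocytes, although some dendritic cells and lymphocytes carry it too.

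Of the 8 chemokine genes, 7 lie on chromosome 11 (GRCm38). Ccl2 (82035571 to 82037453), Ccl7 (82045712 to 82047525), Ccl11 (82057823 to 82062955), Ccl12 (82101845 to 82103400) and Ccl8 (82115185 to 82116799) follow each other there on the plus strand. Ccl9 (83572919 to 83578636) and Ccl6 (83587882 to 83593087) are neighbors on the minus strand. Ccl24 stands alone on the minus strand of chromosome 5 (135569937 to 135573049). Ccr2 (124101950 to 124113557) is on the plus strand of chromosome 9. Neighbors in the chromosome 11 array are related copies, and Ccl12 and Ccl8 illustrate how far their mRNA levels can part.

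RefSeq promoter entries (GRCm38.p6) were matched for 5 of the 9 genes, Ccl6, Ccl8, Ccl9, Ccl12 and Ccr2. The 150 bases before the start of the 4 chemokine genes are shown because they are neighboring pairs that differed several-fold in level in the same tumors, written 5′ to 3′ on the strand of the gene, with matches to TATAAA and GAGGAA (the latter a core letter sequence of PU.1 sites) in capitals.
Ccl12 (chr11:82101695-82101844, plus strand): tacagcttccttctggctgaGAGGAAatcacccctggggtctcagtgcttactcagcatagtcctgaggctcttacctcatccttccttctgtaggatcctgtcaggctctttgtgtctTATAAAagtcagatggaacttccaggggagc
Ccl8 (chr11:82115035-82115184, plus strand): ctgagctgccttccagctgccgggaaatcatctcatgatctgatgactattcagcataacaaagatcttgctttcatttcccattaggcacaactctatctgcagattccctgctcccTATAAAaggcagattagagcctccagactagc
Ccl6 (chr11:83593088-83593237, minus strand): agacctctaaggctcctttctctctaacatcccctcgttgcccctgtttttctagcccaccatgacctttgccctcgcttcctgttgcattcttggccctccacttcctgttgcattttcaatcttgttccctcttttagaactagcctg
Ccl9 (chr11:83578637-83578786, minus strand): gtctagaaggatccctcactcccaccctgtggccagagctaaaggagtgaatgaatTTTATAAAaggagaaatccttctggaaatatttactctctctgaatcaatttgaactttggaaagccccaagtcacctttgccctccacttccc

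In the paired entries of Ccl12 and Ccl8, TATAAA began 31 and 32 bases before the start, and 58 of the 150 positions were identical without gaps (38.7%), against 16.7% to 26.7% in the other 5 pairs of these sequences. Ccl9 held TATAAA on both strands, overlapping each other 92 and 94 bases before the start, and again at 224 bases. Ccl6 held none. Over the 250 bases before the start, searched on both strands, TATAAA was present in 3 of the 5 entries and in 12.4% of all 32851 promoters, and GAGGAA was present in 2 of the 5 (Ccl8 and Ccl12) and in 23.3% of all. TGACG, the half-site bound by the cAMP-response factor CREB, was in none of the 5 windows and in 17.8% of all promoters. Longer patterns of the NF-kB, GAS and STAT6 type were also searched, had no match in the 5 windows and are not counted here. These motifs were chosen after levels had been seen, and a match or its absence describes the letters only.

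Libraries were made from the 3′ ends of transcripts, about 1 tag per molecule, so that counts do not scale with transcript length and levels are given in CPM, counts scaled to a common library total after TMM, a correction for differences in library composition. The 10 libraries held 8150556 to 12839174 counts, and 3 counts, the floor used here, correspond to 0.238 to 0.364 CPM. In the targeted genes, Ptgs1 was at 128 to 173 CPM in Ptgs+/+ tumors against 76.1 to 104 and 94.9 to 98.5 CPM in Ptgs-/- and NK-depleted Ptgs-/- tumors, and Ptgs2 at 96.7 to 353 CPM against 26 to 74 and 40.5 to 49.5 CPM. A tag at the 3′ end can still be read from an edited transcript, and host cells express both genes. The NK cell receptor gene Ncr1 had no count in any of the 3 NK-depleted tumors, where the floor was 0.279 to 0.322 CPM, and was at 0.751 to 1.15 CPM in Ptgs+/+ and 2.42 to 6.76 CPM in Ptgs-/- tumors, with Klrb1c, which encodes NK1.1, at 0.294 to 1.02, 1.5 to 2.41 and 8.37 to 14.6 CPM in the same order. Of 7 tested NK cell markers, 6 were higher in the first comparison described below, 7 in the second and none in the last, in which 4 were lower. Of 7 melanocytic markers, Pmel, Mlana, Tyr, Tyrp1 and Dct stayed at or under 0.751 CPM in all 10 tumors, Sox10 was at 0.205 to 5.67 CPM and Mitf at 17.4 to 32.7 CPM, so pigment cell identity could not be checked from these genes. Skeletal muscle markers stood apart in the NK-depleted tumors, in which 8 genes summed to 2388 to 5563 CPM, against 22.1 to 178 CPM in Ptgs+/+ and 108 to 377 CPM in Ptgs-/- tumors. A code in the sample labels, whose meaning is not given, differs for 1 Ptgs+/+ tumor (replicate 4) and 1 Ptgs-/- tumor (replicate 3). The labels do not say whether tumors of a group came from separate cultures or experiments, so p-values measure the spread between these samples.

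The 9 genes covered a wide range of levels. Ccl6 was the most abundant in every tumor (591 to 1462 CPM), and its mean level was above that of 99.2% of tested genes. Ccl8 (196 to 803 CPM), Ccr2 (140.3 to 658 CPM), Ccl2 (81.8 to 230 CPM) and Ccl9 (124 to 295 CPM) came next, and their ranges overlapped. Ccl7 was lower (27.9 to 76.7 CPM), and Ccl12 (6.57 to 27 CPM), Ccl11 (2.07 to 20.5 CPM) and Ccl24 (3.03 to 76.2 CPM) had the lowest mean levels in each group, although Ccl24 was above Ccl7 in NK-depleted replicate 2 (76.2 against 73.4 CPM). Spread between tumors of a group also differed, with a biological coefficient of variation, the fitted spread beyond counting error, of 17.8% for Ccl9 and 17.9% for Ccr2 but 34% for Ccl8, 35.4% for Ccl24 and 43.8% for Ccl11. In bulk RNA, fewer cells of a type and less RNA per cell cannot be told apart, and that holds for each level below.

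**Figure D1:**
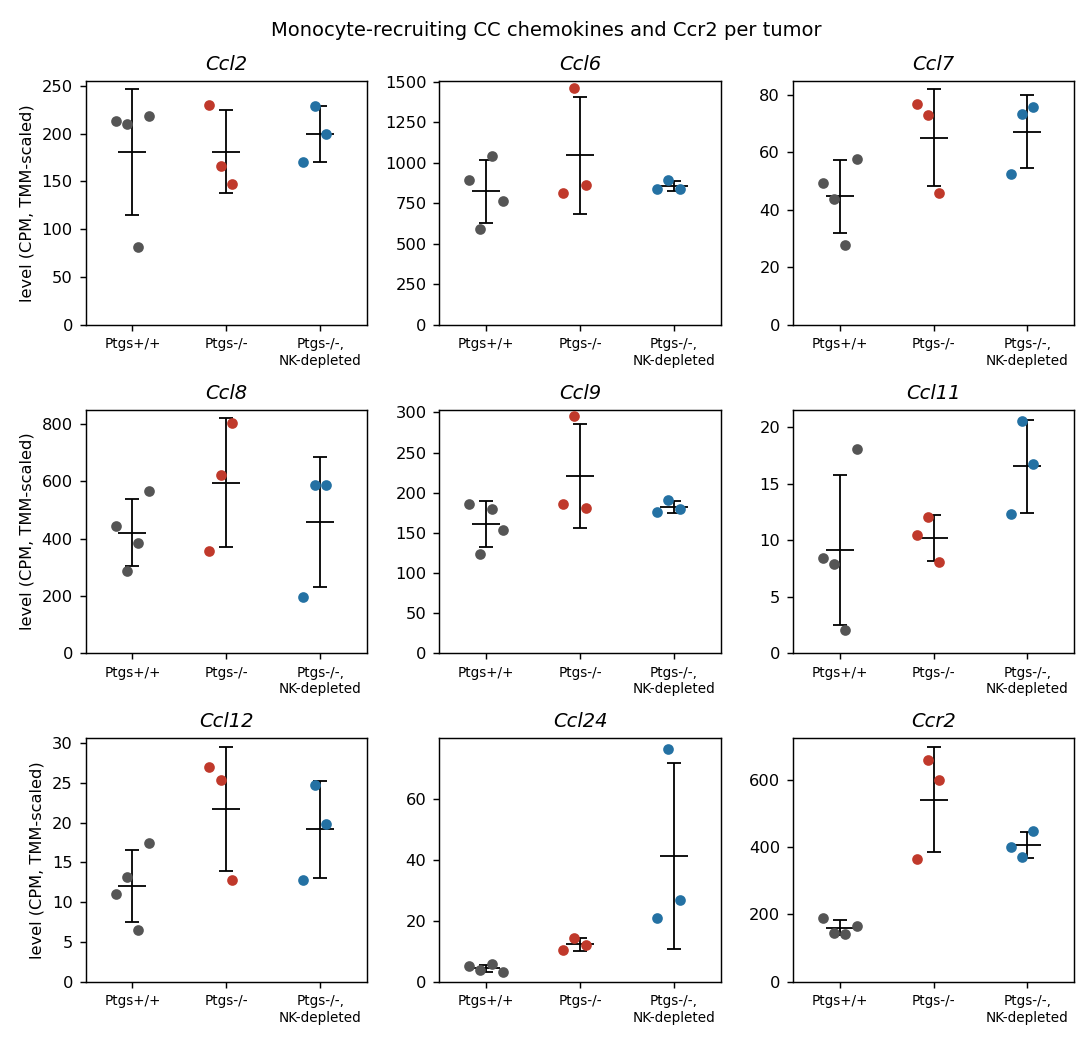
Level of each of the 9 genes in CPM (vertical axes from 0, a scale of its own for each gene) in Ptgs+/+ (grey, 4 tumors), Ptgs-/- (red, 3 tumors) and NK-depleted Ptgs-/- tumors (blue, 3 tumors), with 1 point per tumor in order of replicate and the mean ± SD as bars. Ccr2 and Ccl24 are the genes in which all Ptgs-/- and NK-depleted tumors lie above all Ptgs+/+ tumors.

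The first comparison, Ptgs-/- against Ptgs+/+ tumors in hosts with NK cells, asked how loss of cyclooxygenases in cancer cells moved these genes. The receptor gene Ccr2 and the eotaxin gene Ccl24 rose, and none of the other 7 chemokine genes passed the test. Past the test were 2 of the 9 genes, both higher, beside 23.1% of all tested genes (12.1% higher and 11% lower), so the share of the 9 that passed was near that of genes in general. When a log2 fold change of 1.5 or more in size was also required, the rule of the study, 1 of the 9 (Ccr2) was called, beside 4.15% of all genes. An unadjusted p under 0.05 was reached by 5 of the 9 and 35.9% of all genes, and the groups of tumors did not overlap in 2 of the 9 and 30.5% of all genes. The median log2 fold change of the 9 genes was 0.50, beside -0.01 over all tested genes, and all 9 estimates were above 0. The test was edgeR's quasi-likelihood test in 1 model of all 10 libraries, with Benjamini-Hochberg adjustment over all tested genes and an adjusted p at or under 0.05.

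Ccr2 gave the clearest difference. Its level was 189, 146, 140.3 and 166 CPM in the 4 Ptgs+/+ tumors, 365, 658 and 599 CPM in the 3 Ptgs-/- tumors and 399, 371 and 446 CPM in the 3 NK-depleted Ptgs-/- tumors. Every COX-deficient tumor, with or without NK cells, was above every Ptgs+/+ tumor. Ccr2 was 3.37-fold higher in Ptgs-/- than in Ptgs+/+ tumors (95% interval 2.56 to 4.44), a log2 fold change of 1.75 ± 0.18 (SE, edgeR's quasi-likelihood test, adjusted p = 0.00013). With each library left out in turn it stayed past the test, with log2 fold changes of 1.60 to 1.97, and among libraries of the more common label code alone it was 1.73.

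Ccl24 encodes eotaxin-2, which macrophages make when exposed to IL-4 or IL-13. It was at 5, 3.75, 5.76 and 3.03 CPM in Ptgs+/+ tumors, 10.3, 14.4 and 11.9 CPM in Ptgs-/- tumors and 20.8, 76.2 and 26.7 CPM in NK-depleted Ptgs-/- tumors. The 3 groups did not overlap, and the NK-depleted tumors were the highest. In Ptgs-/- tumors it was 2.76-fold higher than in Ptgs+/+ tumors (95% interval 1.47 to 5.21), a log2 fold change of 1.47 ± 0.42 (SE, edgeR's quasi-likelihood test, adjusted p = 0.0261). That call was near the threshold. It was lost without Ptgs+/+ replicate 2 (adjusted p = 0.0691), Ptgs+/+ replicate 4 (0.064), Ptgs-/- replicate 2 (0.0896) or Ptgs-/- replicate 3 (0.0522), and within the more common label code (log2 fold change 1.38, adjusted p = 0.105), while DESeq2 gave an adjusted p of 0.00151.

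**Figure D2:**
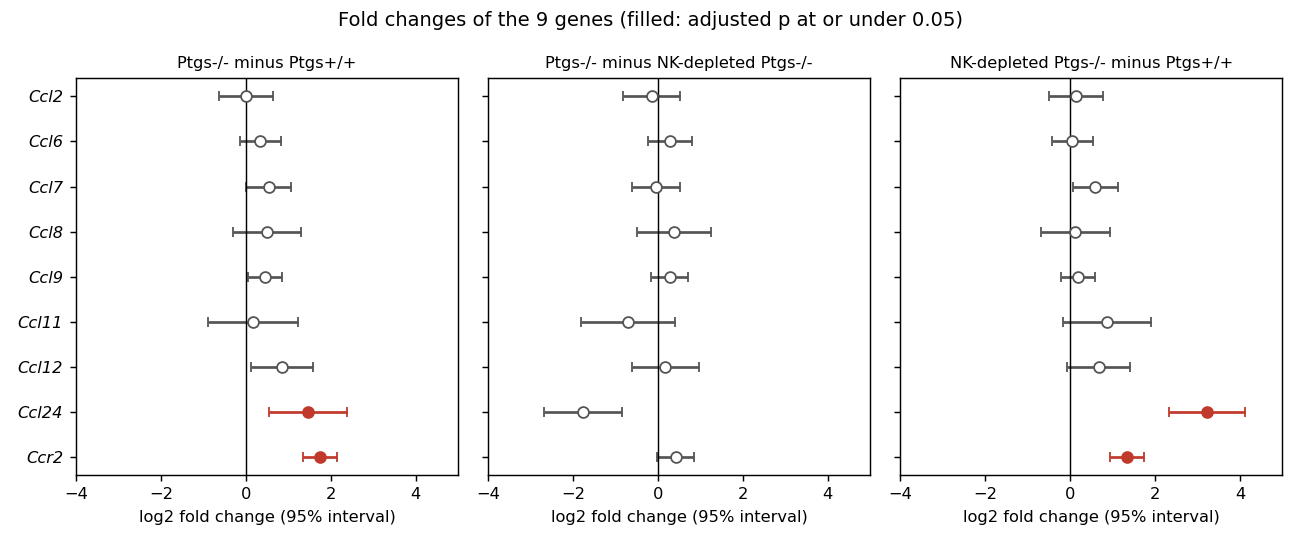
Fitted log2 fold change (horizontal axis) with its 95% interval for each of the 9 genes in the 3 comparisons, filled red where the adjusted p of edgeR's quasi-likelihood test was at or under 0.05. Ccr2 and Ccl24 are filled in both comparisons with Ptgs+/+ tumors, at 1.75 and 1.47 on the left and 1.34 and 3.22 on the right, and none is filled between Ptgs-/- tumors with and without NK depletion.

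The 4 MCP genes did not follow Ccr2 past the test. Ccl2, the best-known monocyte attractant, was at 213, 209.6, 81.8 and 219 CPM in Ptgs+/+, 230, 166 and 147 CPM in Ptgs-/- and 170, 229 and 199 CPM in NK-depleted Ptgs-/- tumors. One Ptgs+/+ tumor, replicate 3, was far under the other 9, which lay between 147 and 230 CPM and overlapped across groups. The log2 fold change between Ptgs-/- and Ptgs+/+ tumors was 0.00 ± 0.29 (95% interval -0.63 to 0.63, adjusted p = 0.997 by edgeR's quasi-likelihood test), and without that tumor -0.24. A change of Ccl2 as large as that of Ccr2 lies outside this interval.

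Ccl7, encoded next to Ccl2, was at 49.2, 43.8, 27.9 and 57.8 CPM in Ptgs+/+, 76.7, 73 and 45.7 CPM in Ptgs-/- and 52.5, 73.4 and 75.7 CPM in NK-depleted tumors. Ccl12, the mouse relative of MCP-1 that is also called MCP-5, was at 11, 13.2, 6.57 and 17.5, then 27, 25.4 and 12.8, then 12.8, 24.8 and 19.9 CPM in the same order. In both genes 2 of 3 Ptgs-/- tumors lay above all Ptgs+/+ tumors, while replicate 3 lay within them. The log2 fold changes were 0.54 ± 0.24 for Ccl7 (adjusted p = 0.13) and 0.85 ± 0.34 for Ccl12 (adjusted p = 0.0929) by edgeR's quasi-likelihood test. Ptgs-/- replicate 3 carries the rarer label code, and among libraries of the more common code alone the values were 0.93 (adjusted p = 0.0306) and 1.39 (adjusted p = 0.02). The more common code alone also leaves out Ptgs+/+ replicate 4, the highest Ptgs+/+ tumor for both genes. Without Ptgs-/- replicate 3 alone, Ccl12 had a log2 fold change of 1.15 (adjusted p = 0.0366). Ccl7 then had 0.78 (adjusted p = 0.0503), not past edgeR's quasi-likelihood test.

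Ccl8, which encodes MCP-2, was the most abundant MCP transcript in each of the 10 tumors and spread widely. Its level was 445, 286, 385 and 567 CPM in Ptgs+/+, 356, 623 and 803 CPM in Ptgs-/- and 196, 588 and 588 CPM in NK-depleted tumors. Of the Ptgs-/- tumors 2 lay above all Ptgs+/+ tumors and 1 within them, and the lowest value of all was an NK-depleted tumor. The log2 fold change between Ptgs-/- and Ptgs+/+ was 0.50 ± 0.37 (95% interval -0.31 to 1.31, adjusted p = 0.362 by edgeR's quasi-likelihood test). Ccl12, whose gene lies next to Ccl8, was at a mean of 12.1 ± 4.54 CPM (SD, n = 4) in Ptgs+/+ tumors against 420.5 ± 118 CPM for Ccl8.

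Ccl11 encodes eotaxin-1, typically a product of fibroblasts. Its level was 8.42, 7.93, 2.07 and 18.1 CPM in Ptgs+/+, 10.4, 12.1 and 8.08 CPM in Ptgs-/- and 12.3, 20.5 and 16.7 CPM in NK-depleted tumors. The Ptgs-/- tumors lay inside the Ptgs+/+ range. Its log2 fold change of 0.17 ± 0.49 (95% interval -0.90 to 1.23) left room for a difference in either direction. Among 8 fibroblast markers, 5 were higher in the first comparison, beside 12.1% of all tested genes. Summed levels of the 8 markers were 13300 to 17010 against 8020 to 10700 CPM. The part of these cells in the level of Ccl11 was not tested.

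The CCR1 ligands Ccl6 and Ccl9, neighbors on chromosome 11, shared their extreme tumors. Ccl6 was at 897, 591, 1042 and 764 CPM in Ptgs+/+, 813, 1462 and 863 CPM in Ptgs-/- and 837, 896 and 840.2 CPM in NK-depleted tumors. Ccl9 was at 186, 124, 180.3 and 153, then 186, 295 and 181, then 176, 191 and 180.3 CPM in the same order. In both genes Ptgs+/+ replicate 2 was the lowest and Ptgs-/- replicate 2 the highest of all tumors, and the other Ptgs-/- tumors lay within the Ptgs+/+ range or at its edge. Their log2 fold changes were 0.34 ± 0.22 (adjusted p = 0.28) and 0.46 ± 0.18 (adjusted p = 0.0918) by edgeR's quasi-likelihood test.

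The second comparison, Ptgs-/- tumors with NK cells against those without, asked which differences depended on NK cells. None of the 9 genes passed edgeR's quasi-likelihood test, beside 1.44% of all tested genes (0.515% higher and 0.921% lower, 1.15% with the study's fold threshold besides), and 1 of 9 had an unadjusted p under 0.05, beside 11.2% of all genes. That gene was Ccl24, whose log2 fold change was -1.75 ± 0.42 (95% interval -2.67 to -0.84, adjusted p = 0.0784), lower where NK cells were present. DESeq2 (adjusted p = 0.00172), edgeR's likelihood ratio test (0.00382) and edgeR without the filter on low counts (0.000651) each called it, and so did edgeR's quasi-likelihood test without NK-depleted replicate 1 (0.0245). Without NK-depleted replicate 2, the tumor with the highest level, the log2 fold change was -0.96 and the adjusted p 0.199.

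Ccr2 did not pass the test between the same groups, with a log2 fold change of 0.41 ± 0.19 (95% interval -0.01 to 0.84, adjusted p = 0.462 by edgeR's quasi-likelihood test). Ptgs-/- replicate 1 lay under the NK-depleted tumors and replicates 2 and 3 above them, and without replicate 1 the log2 fold change was 0.63 (adjusted p = 0.0413). For the 4 MCP genes the log2 fold changes ranged from -0.14 for Ccl2 to 0.38 for Ccl8. Ccl11 was the other gene whose groups did not overlap, being lower in all 3 Ptgs-/- tumors than in all 3 NK-depleted tumors, with a log2 fold change of -0.70 ± 0.51 (adjusted p = 0.676). Groups did not overlap for 2 of the 9 genes and for 17.6% of all tested genes. The median log2 fold change of the 9 genes was 0.17, beside -0.01 over all tested genes.

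The third comparison set NK-depleted Ptgs-/- tumors against Ptgs+/+ tumors, and so shares its samples with the first and second. Past edgeR's quasi-likelihood test were again 2 of the 9 genes, Ccr2 and Ccl24, both higher, beside 12.5% of all tested genes (6.63% higher and 5.87% lower). A log2 fold change of 1.5 or more in size besides was met by 1 of the 9 (Ccl24) and 2.71% of all genes, the groups did not overlap in 2 of the 9 and 26.6% of all genes, and 3 of the 9 and 27% of all genes had an unadjusted p under 0.05. Ccl24 was 9.32-fold higher (95% interval 5.01 to 17.3), a log2 fold change of 3.22 ± 0.41 (SE, adjusted p = 0.000451). Without NK-depleted replicate 2 the log2 fold change was 2.43 (adjusted p = 0.000472), so the size but not the call rested on that tumor. Ccr2 was 2.53-fold higher (95% interval 1.92 to 3.33), a log2 fold change of 1.34 ± 0.18 (SE, adjusted p = 0.000704), and stayed past the test with each library left out.

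None of the other 7 genes passed in that comparison. The estimates ran from 0.06 ± 0.22 for Ccl6 to 0.87 ± 0.47 for Ccl11 on the log2 scale. Ccl7 and Ccl12 had values of 0.59 ± 0.24 (adjusted p = 0.139) and 0.67 ± 0.34 (adjusted p = 0.228) by edgeR's quasi-likelihood test, and in each at least 1 NK-depleted tumor lay within the Ptgs+/+ range. Ccl11 passed the test when Ptgs+/+ replicate 4, its highest Ptgs+/+ tumor, was left out (log2 fold change 1.43, adjusted p = 0.0475). The median log2 fold change of the 9 genes was 0.59, beside -0.01 over all tested genes.

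**Figure D3:**
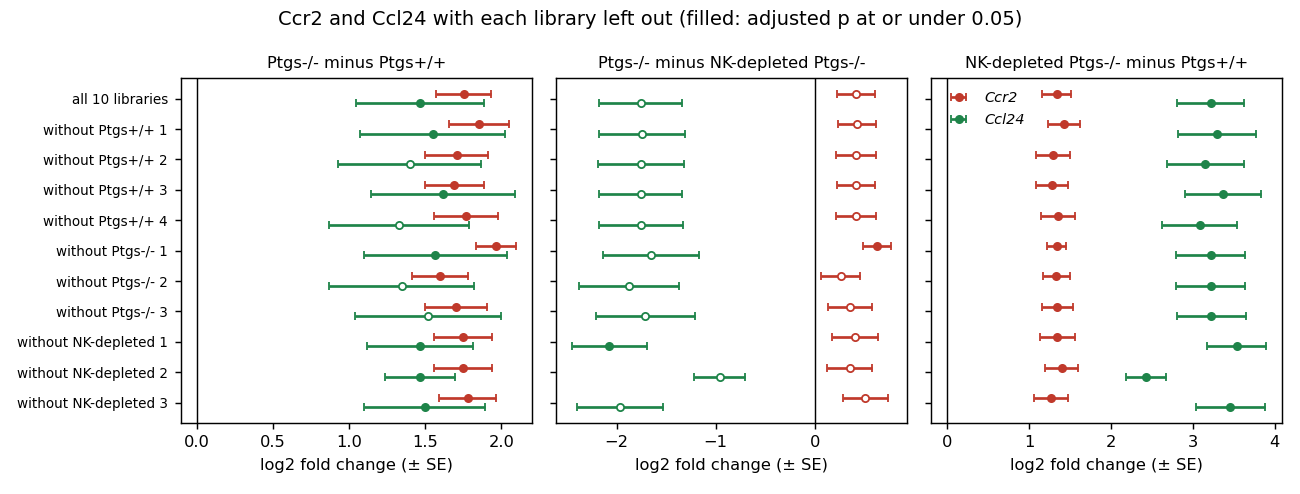
Log2 fold change ± SE of Ccr2 (red) and Ccl24 (green) with all 10 libraries and with each library left out in turn (rows), in the 3 comparisons, filled where the adjusted p of edgeR's quasi-likelihood test was at or under 0.05. Ccr2 is filled throughout in both comparisons with Ptgs+/+ tumors, whereas Ccl24 turns open in 4 of 10 rows on the left, and its values move from -1.75 to -0.96 and from 3.22 to 2.43 without NK-depleted replicate 2.

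The sum of the 8 ligand transcripts was 1278 to 1814 CPM in Ptgs+/+ tumors, 1710 to 2670 CPM in Ptgs-/- tumors and 1478 to 2098 CPM in NK-depleted tumors, and the groups overlapped. Ccl6 and Ccl8 made up most of it in each tumor. Ccl6 took 49.6% ± 7.63 (SD, n = 4) of it in Ptgs+/+, 48.0% ± 6.56 (n = 3) in Ptgs-/- and 47.5% ± 7.93 (n = 3) in NK-depleted tumors, and Ccl8 25.1% ± 4.37, 27.6% ± 9.70 and 23.8% ± 9.22. Ccl24 was the exception in share, at 0.17% to 0.33%, then 0.54% to 0.60%, then 1.37% to 3.63%, with no overlap between groups. Within the MCP group, Ccl8 made up 51.7% to 76.8% of the 4 transcripts in Ptgs+/+ tumors, 51.6% to 79.6% in Ptgs-/- and 45.4% to 66.6% in NK-depleted tumors, and Ccl2 16.3% to 38.0%, 14.6% to 33.3% and 22.6% to 39.5%. Shares of 1 sum are not independent of each other, and no test was run on them.

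**Figure D4:**
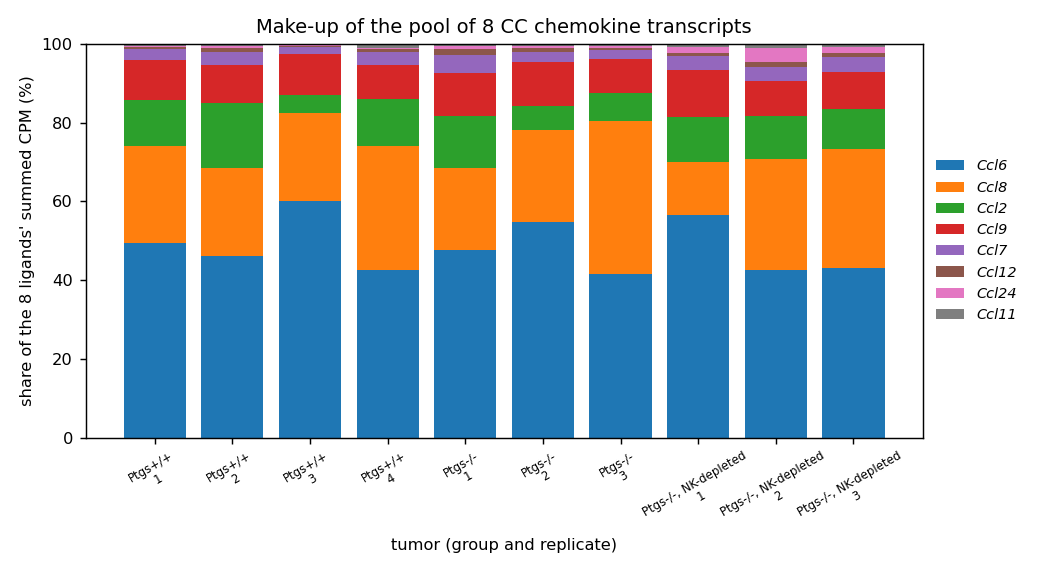
Share (%) of each of the 8 ligands in their summed CPM, as a stacked bar from 0 to 100 for each of the 10 tumors. Ccl6 (blue) and Ccl8 (orange) fill most of every bar, and the Ccl24 band (pink) is widest in the NK-depleted tumors, at 1.37% to 3.63%.

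Set against the MCP transcripts, Ccr2 stood higher in COX-deficient tumors. There were 0.694 to 1.71 Ccr2 tags per Ccl2 tag in Ptgs+/+ tumors, 1.59 to 4.06 in Ptgs-/- and 1.62 to 2.35 in NK-depleted tumors. The highest Ptgs+/+ value belonged to replicate 3, the tumor with little Ccl2, and lay within the other groups. Per tag of the 4 MCP genes together, Ccr2 was at 0.193 to 0.280 in Ptgs+/+, 0.529 to 0.742 in Ptgs-/- and 0.405 to 0.927 in NK-depleted tumors, with no overlap between the first group and the other two.

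Ccr2 was also set against markers of monocytes and of macrophages. Of 7 classical monocyte markers, 3 were higher in Ptgs-/- tumors than in the Ptgs+/+ group by edgeR's quasi-likelihood test and 2 were lower, and their summed level was 639 to 1217 CPM against 1103 to 2404 CPM. The higher ones included Ly6c2, which encodes the surface protein Ly6C of these monocytes, with a log2 fold change of 2.19 (adjusted p = 0.000131), and Ms4a4c with 1.78 (adjusted p = 0.000246). The lower ones were Vcan, a proteoglycan gene, with -0.93 (adjusted p = 0.00025), and Hp, the haptoglobin gene that neutrophils also express, with -2.25 (adjusted p = 0.0186), which took most of the sum in Ptgs+/+ tumors and was named after its values were seen. Of 12 macrophage markers, 10 were higher and none lower, with sums of 3858 to 5737 against 2461 to 3107 CPM, among them Adgre1, which encodes F4/80, with 1.31 (adjusted p = 3.95e-05). Of all tested genes, 12.1% were called higher and 11% lower in this comparison. In NK-depleted against Ptgs+/+ tumors, 3 classical monocyte markers were higher and 1 lower, and 3 macrophage markers were higher, with sums of 855 to 1174 and 3779 to 3978 CPM. There 6.63% of all tested genes were called higher and 5.87% lower. Of 5 nonclassical monocyte markers, 1 was higher in Ptgs-/- and 2 in NK-depleted tumors than in Ptgs+/+ tumors, with sums of 112 to 130, 201 to 322 and 71.9 to 162 CPM in that order. The gene higher in both was Spn, and the other in NK-depleted tumors was Eno3, the enolase of skeletal muscle, which was at 115, 152 and 230.3 CPM there and at 26.8 to 46.3 CPM in the other 7 tumors, and so made up most of the sum in NK-depleted tumors, in which muscle markers were high too. The part of these cells in the rise of Ccr2 was not tested.

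As a difference of log2(CPM + 1), Ccr2 exceeded the mean of the 7 classical monocyte markers by 1.68 ± 0.23 (SD, n = 4) in Ptgs+/+ tumors, 3.11 ± 0.07 (n = 3) in Ptgs-/- and 2.94 ± 0.23 (n = 3) in NK-depleted tumors. Over the mean of the 12 macrophage markers the excess was 0.39 ± 0.24, 1.36 ± 0.22 and 1.26 ± 0.16. The 7 monocyte markers went both ways, so their mean in COX-deficient tumors is lowered by Hp and Vcan and does not stand for each of them. Against single markers Ccr2, which was higher by 1.75 on the log2 scale in the first comparison, was below Ly6c2 (2.19) and near Ms4a4c (1.78) and Plac8 (1.55), the 3 markers that rose. In NK-depleted against Ptgs+/+ tumors the values were 1.34 for Ccr2 and 1.03, 0.73 and 1.04 for these markers. The differences between Ccr2 and single markers were not tested. For the means of the 2 lists, the differences between Ptgs-/- and Ptgs+/+ tumors were 1.43 and 0.97, and between NK-depleted and Ptgs+/+ tumors 1.26 and 0.87, each with p = 0.0571 in a two-sided exact permutation test (adjusted 0.0856 over 6 tests), the smallest that 3 against 4 tumors allow. Between Ptgs-/- tumors with and without NK cells the differences were 0.17 (exact p = 0.3) and 0.11 (exact p = 0.5), where 3 against 3 allow no p under 0.1.

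**Figure D5:**
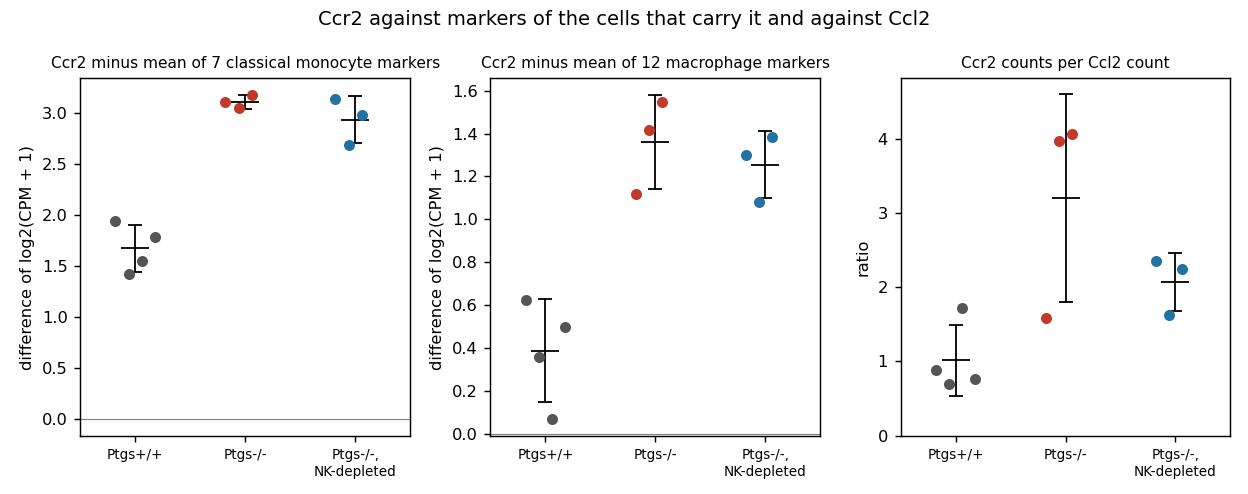
Ccr2 minus the mean of 7 classical monocyte markers (left) and of 12 macrophage markers (middle), as differences of log2(CPM + 1), and the ratio of Ccr2 to Ccl2 tags (right), with 1 point per tumor and mean ± SD. All Ptgs-/- (red) and NK-depleted (blue) tumors lie above all Ptgs+/+ tumors (grey) in the left and middle panels, the left mean being lowered in these tumors by Hp and Vcan while Ly6c2 and Ms4a4c rose like Ccr2 or more in Ptgs-/- tumors, and in the right panel the Ptgs+/+ tumor at 1.71 lies within the other groups.

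Ccl24 was set against markers of the cells its protein attracts and of the cells that make it. Of 5 eosinophil markers, Epx, the eosinophil peroxidase gene, had no count in any tumor, and Prg2 and Il5ra were at most at 0.966 and 0.205 CPM. The list also held Siglecf and Ccr3, the eotaxin receptor gene described again below. The summed level was 3.75 to 6.49 CPM in Ptgs+/+, 5.09 to 14.1 in Ptgs-/- and 7.73 to 18.5 in NK-depleted tumors. Most of it was Ccr3, with means of 3.62, 6.39 and 9.25 CPM in the same order. Siglecf rose in Ptgs-/- (log2 fold change 2.08, adjusted p = 0.00221) and NK-depleted tumors (2.19, adjusted p = 0.00247) against Ptgs+/+ by edgeR's quasi-likelihood test, at no more than 3.25 CPM. With 3 to 9 counts in the Ptgs+/+ tumors, Siglecf passed the filter on low counts through the other groups, and its fold changes are uncertain. Of 10 markers of Lyve1 and Folr2 macrophages, 3 passed as higher in the first comparison and none in the comparison of NK-depleted with Ptgs+/+ tumors, with sums of 1438 to 3406, 1261 to 1937 and 1436 to 2085 CPM in Ptgs-/-, Ptgs+/+ and NK-depleted tumors. Called higher in these comparisons were 12.1% and 6.63% of all tested genes. Skeletal muscle markers were also highest in the 3 NK-depleted tumors, the tumors with the most Ccl24, with sums of 2388 to 5563 CPM against at most 377 CPM in the others. The part of these cells and of muscle in the rise of Ccl24 was not tested.

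The IL-4 and IL-13 axis is known to induce Ccl24 in macrophages. Of its 12 genes 9 were tested. In the first comparison 2 were higher, beside 12.1% of all tested genes called higher. In the last 3 were higher, beside 6.63%, and none was lower in either. Il4ra, a subunit of the receptor of both cytokines, had log2 fold changes of -0.24 and -0.62, and Arg1, an IL-4 target, of 0.07 and 0.27, none past the test. Retnla, a marker of alternatively activated macrophages, rose by 3.95 (adjusted p = 0.00025) and 3.70 (adjusted p = 0.000363) on the log2 scale, and Mgl2, a lectin of the same cells, by 2.24 and 1.88, by edgeR's quasi-likelihood test. Tslp, an epithelial cytokine gene, rose by 1.25 in NK-depleted tumors (adjusted p = 0.0379) at no more than 7.9 CPM. Il4, Il5 and Il13 themselves were too low to test, at no more than 1.58, 0.107 and 0.651 CPM. None of the 9 passed between Ptgs-/- tumors with and without NK cells. The part of this axis in the rise of Ccl24 was not tested.

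Among other receptors of CC chemokines, Ccr3, the receptor of both eotaxins, was higher in NK-depleted than in Ptgs+/+ tumors, with a log2 fold change of 1.36 ± 0.41 (adjusted p = 0.05 by edgeR's quasi-likelihood test). That call stood at the threshold. Ccr3 was at 3.26, 3, 3.42 and 4.81 CPM in Ptgs+/+, 3.03, 10.3 and 5.8 CPM in Ptgs-/- and 8.26, 14.4 and 5.09 CPM in NK-depleted tumors, highest in the tumor with the most Ccl24. The lowest NK-depleted tumor (5.09 CPM) was close to the highest Ptgs+/+ tumor (4.81 CPM). Ccr1, the receptor of CCL6 and CCL9, did not pass in any comparison, with log2 fold changes of 0.33, -0.13 and 0.45 in the order of the comparisons.

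Of 10 CC chemokine genes outside the monocyte-recruiting group 7 were tested. In the first comparison 5 of these passed as higher, beside 12.1% of all tested genes. One of the 5, Ccl1, named after its values were seen, had 0 to 2 counts in the Ptgs+/+ tumors, under the floor of 3 counts, and Ccl17 had 2 to 13, so these 2 passed the filter on low counts through the other groups and their fold changes are uncertain. The 5 included Ccl5, which attracts T cells and dendritic cells (log2 fold change 2.85, adjusted p = 6.12e-05), and Ccl17 (4.78, 0.000117) and Ccl22 (2.33, 0.000296), the ligands of CCR4, by edgeR's quasi-likelihood test, with the log2 fold change and the adjusted p in parentheses. Against NK-depleted tumors, Ptgs-/- tumors were higher in 3 of the 7, Ccl5 (2.16, 0.00221), Ccl4 (1.35, 0.0205) and Ccl22 (1.36, 0.0456), beside 0.515% of all tested genes. NK-depleted tumors were above Ptgs+/+ tumors in 2 of the 7, Ccl17 (3.30, 0.00163) and Ccl22 (0.98, 0.0486), beside 6.63% of all tested genes. The difference between these genes and the 9 was not tested.

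Of 8 other mediators of monocyte traffic and survival, 3 were higher and 1 lower in Ptgs-/- than in Ptgs+/+ tumors. C3ar1, the receptor of complement C3a, rose by 1.28 (adjusted p = 1.47e-05), Csf1r, the receptor of the macrophage growth factor CSF1, by 0.63 (0.0132), and Cx3cr1, the fractalkine receptor, by 0.90 (0.0232) on the log2 scale by edgeR's quasi-likelihood test. Cxcl12, which retains leukocytes through CXCR4, had -1.14 (0.0244). In NK-depleted against Ptgs+/+ tumors 3 were higher, C3ar1 (0.83), Cx3cr1 (1.05) and its ligand Cx3cl1 (0.92), and none was lower. C3ar1 was the 1 that was higher in Ptgs-/- than in NK-depleted tumors (0.44, adjusted p = 0.0476). Shares of all tested genes called higher were 12.1%, 0.515% and 6.63% in the order of the comparisons, and 11%, 0.921% and 5.87% were called lower.

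Of the inflammatory inducers of CC chemokines and NF-kB feedback genes, 10 in all, 9 were tested. One of them was lower in Ptgs-/- and in NK-depleted tumors than in Ptgs+/+ tumors, Il1b, which encodes interleukin-1β, with log2 fold changes of -2.15 (adjusted p = 6.13e-06) and -2.05 (adjusted p = 8.91e-06) by edgeR's quasi-likelihood test. None was higher, and none passed between Ptgs-/- tumors with and without NK cells. Neutrophil markers fell beside it, 5 of 7 tested being lower in Ptgs-/- than in Ptgs+/+ tumors, with sums of 68.9 to 94.9 against 371 to 614 CPM, and 129 to 187 CPM in NK-depleted tumors. In NK-depleted against Ptgs+/+ tumors 4 of the 7 were lower and 1 higher, Retnlg, with 1.77 (adjusted p = 0.0139 by edgeR's quasi-likelihood test). Between Ptgs-/- tumors with and without NK cells 2 passed, S100a8 (-1.26) and S100a9 (-1.14), both lower where NK cells were present. Shares of all tested genes called lower were 11%, 0.921% and 5.87% in the order of the comparisons, and 12.1%, 0.515% and 6.63% were called higher. The part of neutrophils in the level of Il1b was not tested.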

How the data were processed

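RNA of 10 whole tumors was made into 3′ tag libraries (QuantSeq). Per the study's methods, the authors used BBDUK to remove contaminants and the leading 12 bases, trimmed tails with fqtrim and cutadapt, aligned to GRCm38 with STAR and assigned reads with featureCounts. The deposited values are raw counts, neither normalized nor pooled. Whether counting used strand, or how it treated reads of several genes, is not given in the sources used here, so reads shared between related chemokine genes or with antisense genes are uncertain. Symbols and coordinates come from GENCODE on GRCm38, promoter sequences from RefSeq.

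The analysis used R 4.3.3 and edgeR 4.0.16 (filterByExpr, TMM, quasi-likelihood test, 1 model of 3 groups, Benjamini-Hochberg adjustment over 14550 genes, threshold 0.05). Alternatives were DESeq2 1.42.0, edgeR's likelihood ratio test, other filters, library size alone, the label code as a term, 1 code alone, 2 groups alone, the label number as a block, another pseudocount and each library left out. Replicates differed by 7.41 to 30.1 chi-square per degree of freedom, so none was a repeat count of another library. Each was treated as a sample of its own, although this check cannot show separate hosts or cultures. In simulated data for Ptgs-/- against Ptgs+/+ (14334 genes run), the test called 62 of 99 genes changed by 1 on the log2 scale, 81 of 99 changed by 1.5, and 6 of 14136 unchanged genes. A far smaller share of genes was changed there than the 23.1% called in the tumors, so these rates need not hold for the tumors.

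The 9 genes and all lists were chosen with earlier results of these data known. Named are the 9 genes, checks of the labels, up to 4 genes per list and comparison by smallest adjusted p, and the 3 genes of most similar pattern to Ccr2 and to Ccl24. Not every listed gene is reported here.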

Additional observations from a re-analysis of the deposited data

Results flagged for a closer look

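Ccl2 in Ptgs+/+ tumors was the value that stood apart from its group. Replicate 3 was at 81.84 CPM, while the other 3 tumors lay between 209.6 and 218.8 CPM, so that the gap to its nearest neighbor took 0.933 of the whole range, more than Dixon's 95% critical value for 4 samples allows. Of 11 groups of 4 values checked this was 1, and chance flags about 1 in 20. The same tumor was also the lowest of the 4 for Ccl7 (27.9 CPM), Ccl11 (2.07 CPM) and Ccl12 (6.57 CPM) and the highest for Ccl6 (1042 CPM).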

How the results depend on the processing

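Ccr2 kept its direction and its call in both comparisons with Ptgs+/+ tumors under every alternative run but 1, the fold threshold, which it did not reach in NK-depleted against Ptgs+/+ tumors (log2 fold change 1.34). The number of the 9 genes past the test in Ptgs-/- against Ptgs+/+ tumors was 2, ran from 1 to 2 with 1 library left out, was 4 with no filter on low counts (Ccl9 and Ccl12 besides) and 1 with the fold threshold. Between Ptgs-/- tumors with and without NK cells it was 0, ran from 0 to 1 with 1 library left out, and was 1 (Ccl24, lower in Ptgs-/-) with DESeq2, with no filter and with the likelihood ratio test. In NK-depleted against Ptgs+/+ tumors it was 2, ran from 2 to 3 with 1 library left out and was 1 with the fold threshold. The cause was not tested where a test or filter changed a count. The share of all genes called under each alternative, the label number block below included, is not given here. A changed count among the 9 therefore cannot be told from a general shift in calls. Estimates near 0 turned in sign, none of them a call. With 1 library left out, log2 fold changes ran from -0.24 to 0.16 (Ccl2) and from -0.17 to 0.73 (Ccl11) for Ptgs-/- against Ptgs+/+, from -0.35 to 0.012 (Ccl2), -0.0178 to 0.44 (Ccl6), -0.20 to 0.18 (Ccl7) and -0.0459 to 0.47 (Ccl12) for Ptgs-/- against NK-depleted Ptgs-/-, and from -0.10 to 0.25 (Ccl2), -0.0726 to 0.19 (Ccl6) and -0.10 to 0.48 (Ccl8) for NK-depleted Ptgs-/- against Ptgs+/+. Libraries of the more common code alone gave 0.0121 (Ccl2) and 0.18 (Ccl7) for Ptgs-/- against NK-depleted Ptgs-/-, and the code as a term gave -0.0063 (Ccl6) for NK-depleted Ptgs-/- against Ptgs+/+. Of the context list counts, 176 moved by over 1.5 times and 724 did not.

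Whether numbers in the labels pair the tumors is not given. Deviations from group means correlated at -0.244 to 0.355 over 11 pairs of same-numbered tumors, and at -0.426 to 0.166 in pairs of different number. Some same-numbered pairs differ in label code and groups are small, so these correlations cannot decide it. With the number as a replicate block, 3, 0 and 2 of the 9 genes passed in the 3 comparisons, Ccl12 joining in the first (log2 fold change 0.97, edgeR's quasi-likelihood test, adjusted p = 0.0298), and no other call changed. Depth limited Ccl24 and Ccl11 most, with as few as 29 and 23 counts in a library.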

Other observations

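Over the 10 tumors, the genes whose log2(CPM + 1) pattern was most like that of Ccr2 were Acss1 (Pearson r = 0.986), Pou2f2 (0.985) and Stk10 (0.984), and those most like Ccl24 were Aes (0.975), Dagla (0.948) and Cacul1 (0.944). They were the highest of all tested genes and are a description. The points share libraries and groups. Mean levels of Pou2f2, a transcription factor gene of B cells and myeloid cells, were 26.1 CPM in Ptgs+/+, 103 CPM in Ptgs-/- and 64.3 CPM in NK-depleted Ptgs-/- tumors, the order seen for Ccr2.

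The tumor with the most Ccl24, NK-depleted replicate 2, also had the most Ccl19, at 8.92 CPM, while the other 9 tumors had at most 1.64 CPM. Ccl19, a chemokine gene of lymph node stroma and mature dendritic cells, was too low to be tested and was named after its values were seen.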
